A study of Sus scrofa with 12 samples.

Results

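The genes described here are those of swine leukocyte antigen (SLA) class I, the pig's major histocompatibility complex class I, and of the steps that load it with peptide, measured in the ovaries of pregnant sows. They were taken as 10 listed genes: the classical heavy chains SLA-1, SLA-2 and SLA-3, the nonclassical heavy chains SLA-6, SLA-7 and SLA-8, the light chain B2M, the peptide transporter subunit TAP1, and the immunoproteasome subunits PSMB8 and PSMB9. A probe set, the group of short probes that reports a transcript on the array, counted as a member when its single gene symbol in the platform annotation was one of these. The rule found 20 of the 24123 probe sets, for 8 of the 10 genes, where 6765 genes in all have a probe set of their symbol alone. SLA-1 and PSMB9 had no probe set of their own symbol alone.

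The animals were 12 F2 sows of an Iberian x Meishan cross killed on day 30 of pregnancy, with 1 ovary sample each. The high prolificacy group held 6 sows with the higher estimated breeding value (EBV) for prolificacy, and the low prolificacy group held 6 sows with the lower EBV. Cross, tissue and day of pregnancy were the same in both groups, and each sample averaged the right and left ovary of its sow. Sows are named by group and animal number, such as high 3. Values are log2 expression per probe set, so a difference of 1 is a doubling, and differences are high minus low prolificacy.

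A class I molecule is a membrane-bound heavy chain held together with the small soluble protein beta-2-microglobulin and a short peptide. The proteasome cuts proteins into peptides, and the immunoproteasome is the form whose catalytic subunits are exchanged for interferon-inducible ones. The TAP transporter carries the peptides into the endoplasmic reticulum, where they are loaded before the complex moves to the cell surface and is read by T cells. The heavy chain genes resemble each other closely in sequence and differ between individuals, and nearly every nucleated cell makes the classical ones. In RefSeq's Sscrofa11.1 assembly the genes SLA-8, SLA-7 and SLA-6 follow each other on chromosome 7, as do TAP2, PSMB8, TAP1 and PSMB9, also on chromosome 7. B2M lies on chromosome 1, where the assembly has B2M as 2 genes with LOC110261204 between them.

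Of the 20 probe sets, 17 exceeded a level of 4 in at least 6 of the 12 sows and were tested. The other 3, 1 of SLA-6 and 2 of TAP1, ranged from 1.59 to 2.47 over all sows, near the floor of the table. Of the 17, 9 are of B2M and 2 of SLA-8, all read in the same sows, so counts among the 17 are not counts of separate genes. With limma and Benjamini-Hochberg adjustment over all 13390 tested probe sets, 0 of the 17 passed an adjusted p of 0.05, and the share over all tested probe sets was 0%. The smallest adjusted p was 0.752 among the 17 and 0.46 over all tested probe sets. At an unadjusted limma p under 0.05 there was 1 of 17, where the share over all tested probe sets was 5.64%. Without high 3 there were 4 of 17, where the count over all 13390 tested probe sets was 899. Of the 17, 10 were higher in high prolificacy sows, with a share of 47.6% over all tested probe sets. The median difference was 0.07 over the 17 and -0.01 over all tested probe sets, and the first of these moved with single sows, as given below. No member separated the groups, so 0 of 17 were without overlap, where the share over all tested probe sets was 0.471%. At the median over the 17 the 95% interval, which is not adjusted for the number of probe sets, extended 0.39 on each side of the estimate. In whole ovary, fewer cells of a type and less RNA per cell cannot be told apart.

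Some sows stood apart from the rest. High 3 had the lowest value in 10 of the 17 probe sets, high 5 the highest in 6 and high 4 the highest in 5. How often each sow held these places over all tested probe sets was not counted, so this is not shown to be particular to the members. High 3 was also the array with the lowest mean rank correlation with the others, 0.981, and the highest array median, 4.97. The 3' minus 5' difference of the actin control, a measure of RNA integrity on the array that grows when the 5' end is under-represented, had a mean of 2.59 ± 0.45 in high prolificacy sows, against 2.12 ± 0.13 in low prolificacy sows (SD, n = 6 each; two-sided exact permutation test, p = 0.0325, adjusted p = 0.0812 over 5 array measures). The same difference for GAPDH had a mean of 2.02 ± 0.20 in high prolificacy sows, against 1.77 ± 0.11 in low prolificacy sows (exact p = 0.0195, adjusted p = 0.0812). With the actin difference as a covariate, 0 of the 17 passed either, and the smallest adjusted limma p was 0.183. The largest moves under that covariate among the heavy chains were to 0.47 for SLA-6, to 0.35 for SLA-7, and to -1.06 and -1.05 for the pair of SLA-8 probe sets described below. Without high 3, 13 of the 17 probe sets were higher in high prolificacy sows, with a median difference of 0.19. Over all tested probe sets the share was then 46.7% and the median -0.016. Without high 5, 10 of the 17 were higher, with a median of 0.0069, against a share of 48.8% and a median of -0.0053 over all.

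The classical heavy chain SLA-2, which presents peptides to cytotoxic T cells, has a probe set whose name carries the suffix x_at. That suffix marks probes that can also hybridise to other transcripts, so the reading of SLA-2 is uncertain where related heavy chains share its probes. SLA-2 was 11.98, 11.61, 11.29, 12.49, 12.38 and 11.77 in high 1 to 6, against 11.66, 11.76, 11.97, 11.67, 11.74 and 11.83 in low 1 to 6. The high prolificacy sows held both ends of the range, with high 3 lowest and high 4 and high 5 highest, and all low prolificacy values lay between them. The means were 11.92 ± 0.46 in high and 11.77 ± 0.12 in low prolificacy sows (SD, n = 6 each). The difference of 0.15 had a 95% interval of -0.25 to 0.55 and a limma adjusted p of 0.958.

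SLA-3, the other classical heavy chain with a probe set of its own, had a lowest, median and highest value of 9.76, 10.42 and 10.85 in high and of 9.77, 10.07 and 10.50 in low prolificacy sows. High 3 was again lowest and high 5 highest, and the groups overlapped over most of their range. Its difference was 0.25 (95% interval -0.14 to 0.63, limma adjusted p = 0.920), and 5 of 6 high prolificacy sows were above the mean of the low ones. SLA-2 and SLA-3 followed each other over the 12 sows with a Pearson r of 0.81, given as a description, since probes of such similar genes may share targets.

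Of the 5 further probe sets annotated to several class I heavy chain genes, which are not members, 2 ran closely with SLA-2 over the sows. Both have SLA-2 among their symbols and the suffix x_at, so they may share its targets and are not separate readings. One ran with SLA-2 at r = 0.94 and differed by 0.06 between the groups, and the other ran with it at r = 0.93 and differed by 0.0072. A further one was at 10.05 in low 4 and between 2.31 and 5.54 in the other 11 sows. No other sow came near low 4 in this probe set, and its difference of -1.18 had an adjusted p of 0.931 in limma. The remaining 2 lay between 2.25 and 2.65 in all sows and were not tested.

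**Figure D1:**
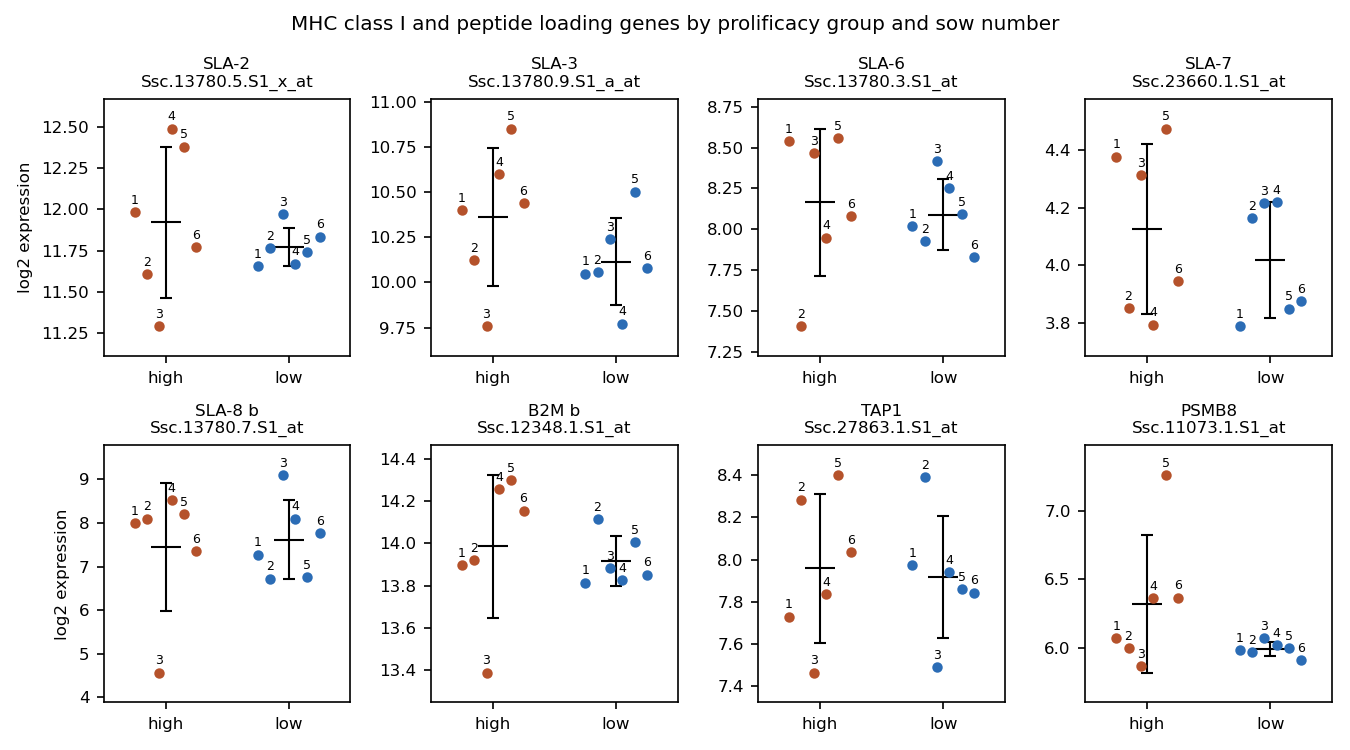
Log2 expression (y axis) of 1 probe set for each of the 8 genes in the 6 high prolificacy sows (left) and the 6 low prolificacy sows (right). Points are sows with their animal numbers, bars are the mean ± SD, and the y axes differ between panels and do not start at 0. The groups overlap in every panel, and high 3 is the lowest sow for SLA-2, SLA-3, TAP1, PSMB8 and the probe sets SLA-8 b and B2M b. Of the other B2M probe sets, not plotted, B2M a was lowest in high 5, and B2M c and B2M f were highest in high 3.

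The nonclassical heavy chain SLA-6 had a lowest, median and highest value of 7.41, 8.27 and 8.56 in high and of 7.83, 8.05 and 8.42 in low prolificacy sows. High 2 was below every low prolificacy sow, and high 1, high 3 and high 5 were above all of them. The difference was 0.08 (95% interval -0.34 to 0.50, limma adjusted p = 0.988). SLA-7, also nonclassical, was near the filter level and above 4 in 6 sows, 3 of each group. Its lowest, median and highest values were 3.79, 4.13 and 4.47 in high and 3.79, 4.02 and 4.22 in low prolificacy sows, with a difference of 0.11 (95% interval -0.21 to 0.42, limma adjusted p = 0.962). Over the 12 sows SLA-6 and SLA-7 ran together at r = 0.79, while the r with SLA-2 was 0.18 for SLA-6 and 0.08 for SLA-7.

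SLA-8, the third nonclassical heavy chain, had the widest within-group spread of the members and had a pair of tested probe sets, named a and b from the brighter to the dimmer. SLA-8 b was 7.99, 8.10, 4.56, 8.53, 8.21 and 7.36 in high 1 to 6, against 7.28, 6.72, 9.10, 8.10, 6.76 and 7.76 in low 1 to 6. High 3 was far below every other sow, and low 3 was the highest. The within-group SD of 1.22 was at the 98.8 percentile of all tested probe sets. SLA-8 a gave 4.99 in high 3, 6.91 or more in every other sow, and r = 0.99 with SLA-8 b. Both are annotated to the same gene and may share targets, so they are not separate readings. The differences were -0.16 (95% interval -1.53 to 1.20) for SLA-8 b and -0.11 (95% interval -1.44 to 1.23) for SLA-8 a, both with a limma adjusted p of 0.990. Without high 3 they were 0.42 and 0.44, so their direction turned when that sow was left out, as it did for both without low 3. In high 3, SLA-6 and SLA-7 were above the median of their group.

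Beta-2-microglobulin, the light chain that class I heavy chains need to reach the cell surface, had 9 tested probe sets, named a to i from the brightest to the dimmest, and they did not give a common pattern. Among the 36 pairs, r over the 12 sows ran from -0.922 to 0.962 with a median of -0.034, and 21 pairs were negative. B2M b, B2M e and B2M h followed each other at r from 0.823 to 0.962, and each ran against B2M c at r from -0.922 to -0.850. All 9 carry the B2M symbol in the annotation, and whether all 9 read the B2M transcript was not tested.

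B2M b gave 13.90, 13.92, 13.39, 14.26, 14.30 and 14.16 in high 1 to 6, against 13.81, 14.11, 13.88, 13.83, 14.01 and 13.85 in low 1 to 6. As for SLA-2, high 3 was lowest, high 4 and high 5 were highest, and the low prolificacy sows lay between. The difference was 0.07 (95% interval -0.25 to 0.39, limma adjusted p = 0.985). B2M e differed by 0.13 and B2M h by 0.17. The brightest B2M probe set, B2M a, was at 13.61, 14.07 and 14.40 (lowest, median and highest) in high and at 13.88, 14.06 and 14.21 in low prolificacy sows. There high 5 and high 6 were lowest and high 2 highest, and the difference was -0.06 (95% interval -0.38 to 0.25, limma adjusted p = 0.985).

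B2M f was the single member with an unadjusted limma p under 0.05. It was 8.73, 7.80, 10.08, 8.09, 8.95 and 8.55 in high 1 to 6, against 7.75, 8.20, 7.13, 6.98, 7.19 and 8.14 in low 1 to 6. All 6 high prolificacy sows were above the mean of the low ones and 4 were above every low prolificacy sow, while high 2 and high 4 fell among them. The difference of 1.14, or 2.20-fold, had a 95% interval of 0.37 to 1.91, an unadjusted limma p of 0.00716 and an adjusted p of 0.752, so it did not pass. Here high 3, the lowest sow for SLA-2 and SLA-8, was the highest, and without high 3 the difference was 0.86. With the actin 3' minus 5' difference as a covariate it was 1.87, with an unadjusted limma p of 6.37e-05 and an adjusted p of 0.183. Its r with the other 8 B2M probe sets ran from -0.39 to 0.21.

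Of the other 4 B2M probe sets, B2M d spread widest. Its lowest, median and highest values were 11.99, 13.03 and 14.23 in high and 12.41, 13.59 and 13.90 in low prolificacy sows, with a difference of -0.46 (95% interval -1.28 to 0.37, limma adjusted p = 0.929). The high prolificacy sows again held both ends. B2M c differed by -0.03, B2M g by -0.04 and B2M i by -0.0031. The last ranged only from 4.81 to 5.21 over all sows.

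**Figure D2:**
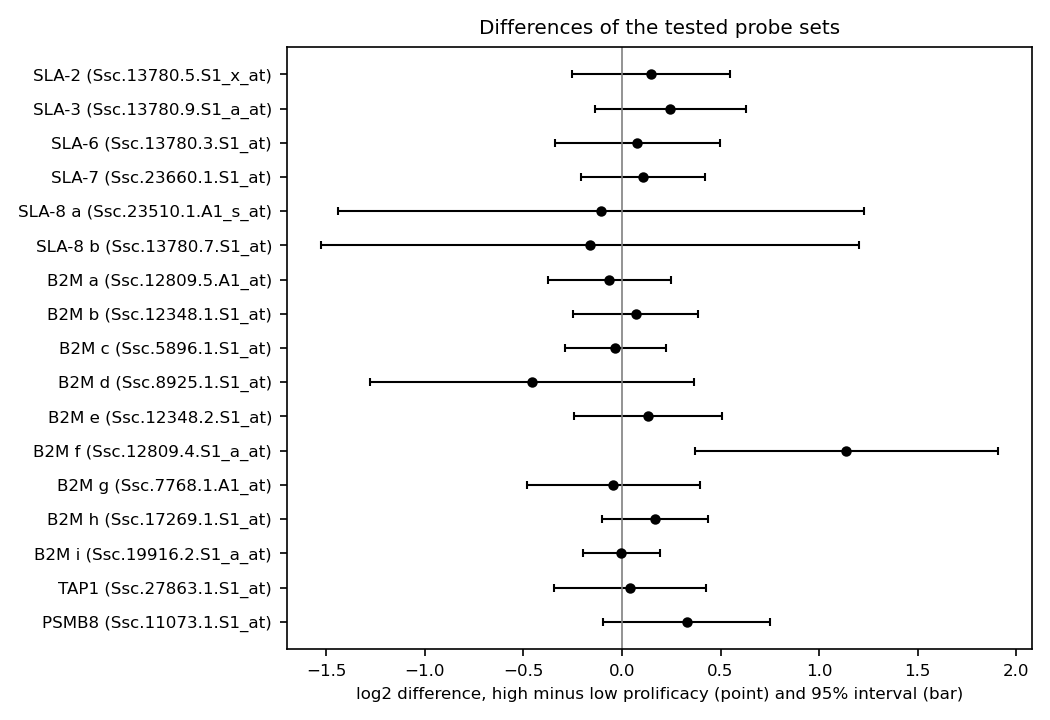
Difference of each of the 17 tested probe sets (rows, gene and probe set), high minus low prolificacy, on the log2 scale (x axis). Points are the limma estimates and bars the 95% intervals. Every interval but that of B2M f, at 0.37 to 1.91, includes 0.

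TAP1, which with TAP2 forms the peptide transporter, was at 7.73, 8.28, 7.46, 7.84, 8.40 and 8.04 in high 1 to 6, against 7.98, 8.39, 7.49, 7.94, 7.86 and 7.84 in low 1 to 6. High 3 and low 3 were lowest and high 5 and low 2 highest, so each group spanned nearly the whole range. The difference was 0.04 (95% interval -0.35 to 0.43, limma adjusted p = 0.990).

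PSMB8, the immunoproteasome subunit with chymotrypsin-like activity, is encoded next to TAP1. Its lowest, median and highest values were 5.87, 6.22 and 7.26 in high and 5.91, 5.99 and 6.07 in low prolificacy sows. The 6 low prolificacy sows lay within a narrow band, and high 4, high 5 and high 6 were above all of them, high 5 by the most. The means were 6.32 ± 0.50 in high and 5.99 ± 0.05 in low prolificacy sows (SD, n = 6 each), and differed by 0.33 (95% interval -0.09 to 0.75, limma adjusted p = 0.899). Without high 5 the difference was 0.14. The SD in high prolificacy sows was 9.42 times that in low prolificacy sows, a ratio exceeded by 0.403% of all tested probe sets. Without high 5 the ratio was 4.20, exceeded by 3.38% of them.

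The other members also spread more widely in high prolificacy sows. The SD was larger in high than in low prolificacy sows in 17 of 17 probe sets. The share over all tested probe sets was 73.8%. The median ratio of the SDs was 1.60 for the members and 1.39 over all tested probe sets. Of the 17, 9 are of B2M and 2 of SLA-8, so they are not 17 separate readings. Without high 3 the SD was larger in high prolificacy sows in 13 of 17, against 66.6% of all tested probe sets. The median ratio was then 1.19 for the members and 1.25 over all. The ratios for SLA-2 and for B2M e were both 3.92, and without high 3 they were 3.25 for SLA-2 and 2.10 for B2M e. For TAP1 the ratio was 1.22, and for B2M g it was 1.01.

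**Figure D3:**
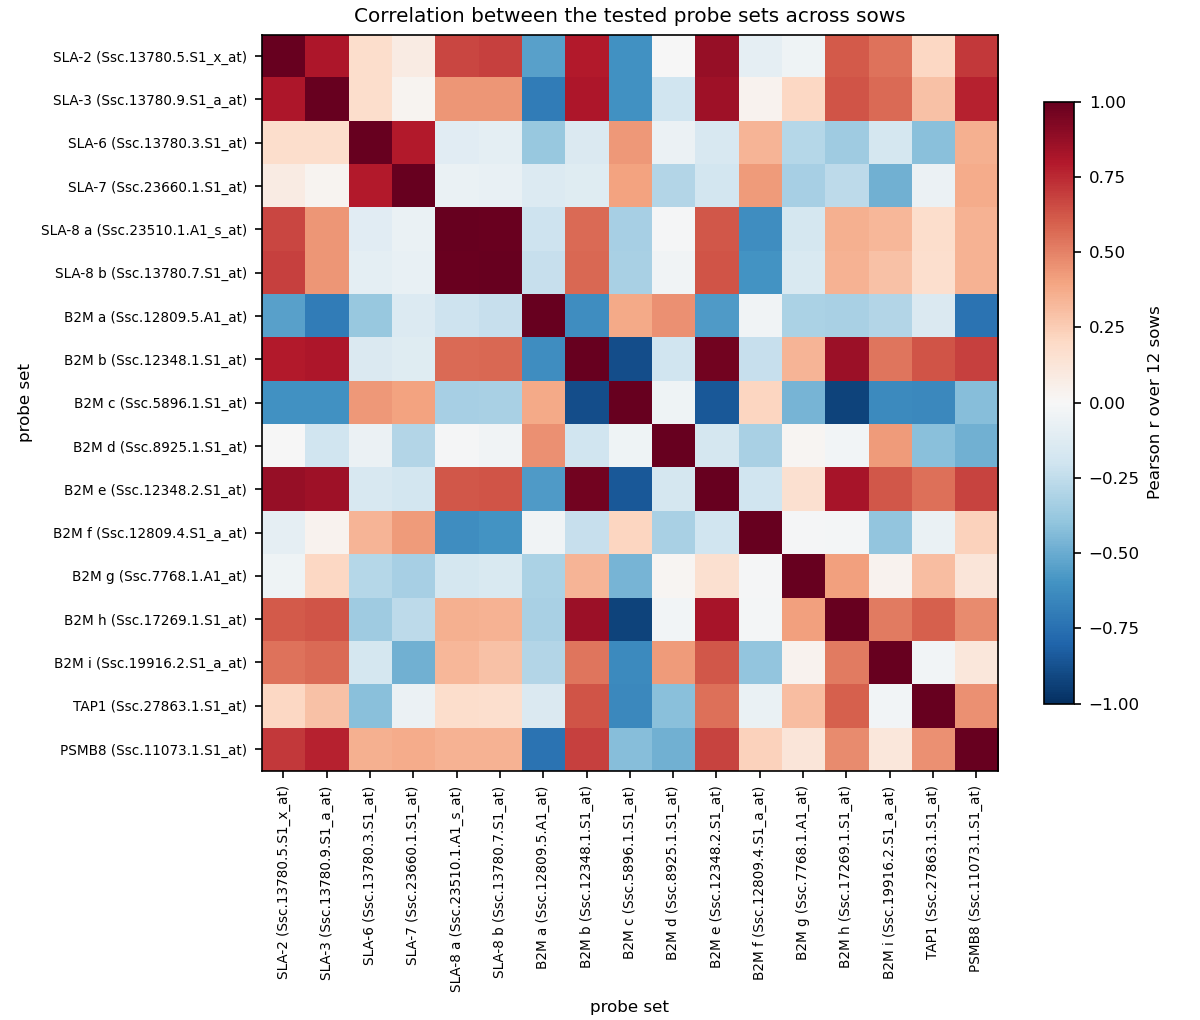
Pearson r over the 12 sows between each pair of the 17 tested probe sets (rows and columns in the same order), from blue at -1 to red at 1. SLA-2, SLA-3, B2M b and B2M e and PSMB8 form a red group, while B2M c and B2M a run against SLA-2 at r of -0.61 and -0.54.

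Of 6 relations between genes that were planned, 3 could be computed, since PSMB9 has no probe set of its symbol alone. TAP1 and PSMB8 had r = 0.46 and rho = 0.20 over 12 sows (100000 permutations, p = 0.148 and 0.530, adjusted over 3 pairs 0.222 and 0.795), and r was 0.22 without the 2 sows farthest from the median of TAP1. Within groups r was 0.67 in high and -0.50 in low prolificacy sows (n = 6 each). SLA-2 and the brightest B2M probe set had r = -0.54 and rho = -0.66 (permutation p = 0.0648 and 0.0221, adjusted 0.194 and 0.0662). That r was -0.35 without the 2 sows farthest from the median of SLA-2, -0.54 within high and -0.47 within low prolificacy sows. With the other B2M probe sets, chosen after seeing the data, the r with SLA-2 took either sign, from -0.61 for B2M c to 0.79 for B2M b and 0.87 for B2M e. TAP1 and RSAD2, an interferon-induced antiviral protein, had r = 0.03 and rho = 0.03 (permutation p = 0.915 and 0.940, adjusted p = 0.915 and 0.940), with r = 0.17 without the 2 sows farthest from the median of TAP1, 0.54 within high and -0.65 within low prolificacy sows.

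SLA-2, SLA-3 and B2M b were each centred on their mean over the 12 sows and averaged, a choice made after seeing the data. B2M b has the same extreme sows as SLA-2, so the choice helped set which sows stand out. B2M a, the brightest B2M probe set, ran against SLA-2 and SLA-3 at r of -0.54 and -0.70. The averaged level was -0.53 in high 3, 0.44 in high 4 and 0.50 in high 5. In the 6 low prolificacy sows it was -0.26 to 0.07. Of 9 endothelial markers 8 were tested, and their mean was 7.48 in high 3, 7.73 in high 4 and 8.38 in high 5, the highest of all sows, against 7.47 to 7.80 in low prolificacy sows. High 3 was the third lowest, above high 1 and low 6, and it was the lowest, at 6.85, only when the dim KDR was included. Of 6 granulosa markers 4 were tested, and their mean was 10.13 in high 3, 5.90 in high 4, the lowest of all sows, and 8.31 in high 5, against 7.35 to 10.23 in low prolificacy sows. High 3 was the third highest, below low 6 and high 1, and it was the highest, at 8.18, only when the dim FSHR and AMH were included. The mean of 6 luteal genes was 13.13 in high 3, the lowest of all sows, 13.75 in high 4 and 13.48 in high 5. Over 7 class II genes it was 8.79, the lowest, 9.53 and 9.97, the highest, in the same order. Over 3 stroma and smooth muscle markers it was 13.18, the highest, 11.52, the lowest, and 12.42. Over 7 leukocyte and macrophage markers it was 6.12, 5.87 and 6.83, the highest. The part of these cell types and lists in the class I values was not tested.

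**Figure D4:**
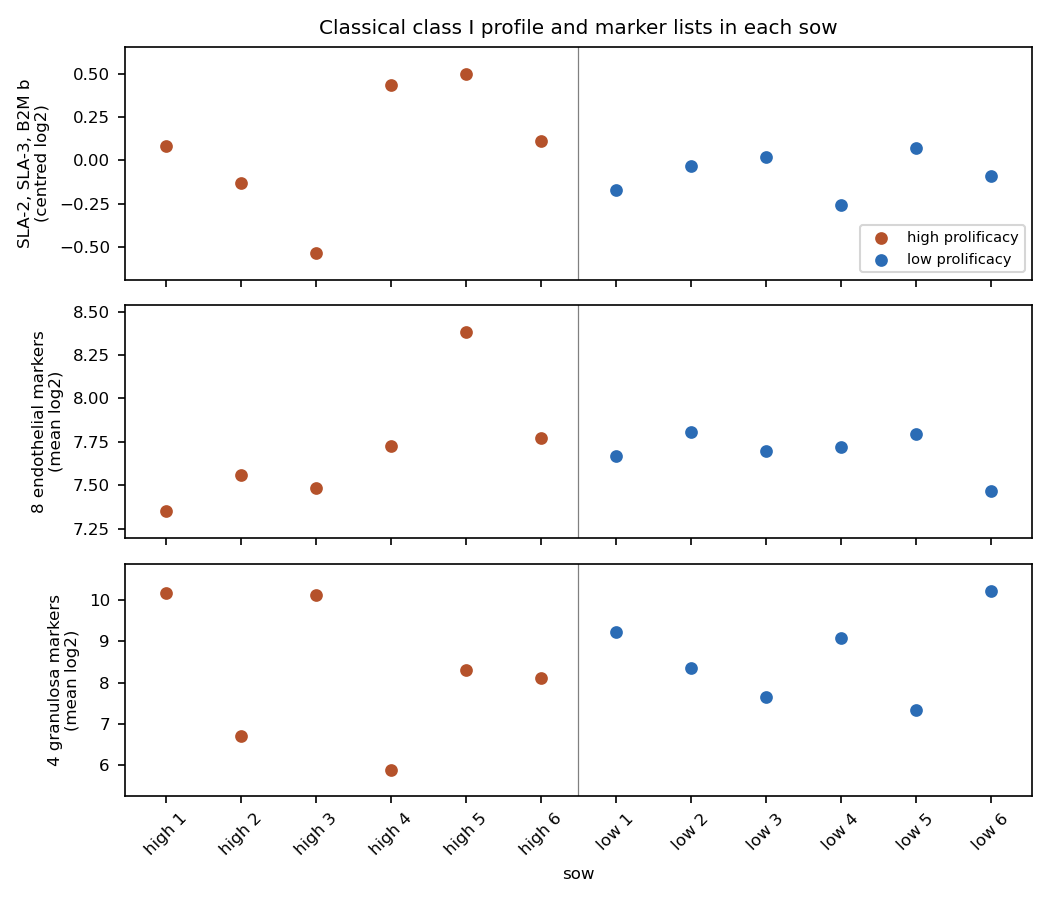
Centred mean log2 level of SLA-2, SLA-3 and B2M b (top), mean log2 level of the 8 tested endothelial markers (middle) and of the 4 tested granulosa markers (bottom) in each sow, high prolificacy left and low prolificacy right. SLA-2, SLA-3 and B2M b were chosen together after seeing the data. High 5 is highest in the upper 2 panels. High 3 is lowest in the top panel but not in the middle one, and high 4 is lowest in the bottom panel.

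The defining markers of lymphocytes were near the floor. Of 15 T and NK cell markers 13 had a probe set and 1, CD247, exceeded the filter. The mean over all 13 was 2.44 to 2.60 in high and 2.46 to 2.64 in low prolificacy sows. CD3D, CD3E, CD3G, CD8A and PRF1 were among the dim ones. The single B cell marker with a probe set, CD79B, was also dim. Of 13 leukocyte and macrophage markers 9 had a probe set and 7 were tested. The mean of these 7 was 5.87 to 6.83 in high and 5.67 to 6.82 in low prolificacy sows. With the dim PTPRC and CD86 included it was 5.18 to 5.93 in high and 5.02 to 5.92 in low prolificacy sows. The luteal markers were bright, with a mean of 6 genes of 13.13 to 13.80 in high and 13.36 to 13.62 in low prolificacy sows. Other markers of ovarian cells had dim probe sets too, namely KDR, FSHR, AMH and COL3A1. Whether lymphocytes were absent was not tested. The 4 stroma and smooth muscle markers with a probe set, of 6, had a mean of 9.38 to 10.85 in high prolificacy sows, against 9.58 to 10.49 in low prolificacy sows.

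Genes that act beside the members in antigen processing were as often higher as lower, and a shift as a group was not tested. Of 16 listed, 10 were tested, 5 higher and 5 lower in high prolificacy sows. The median difference was -0.01, and 0 passed the adjusted limma test. Without high 2 and high 3 the split was 7 higher and 3 lower, and without high 5 it was 4 higher and 6 lower. PSME3, a proteasome activator subunit, was 6.79 ± 0.10 in high prolificacy sows, against 7.18 ± 0.30 in low prolificacy sows (SD, n = 6 each), and differed by -0.39 with an unadjusted limma p of 0.0114 and an adjusted p of 0.771. PDIA3, a disulphide isomerase of the peptide loading complex, differed by -0.18, the chaperone CANX by -0.09 and the chaperone HSPA5 by 0.17. The 3 constitutive catalytic proteasome subunits, which the immunoproteasome subunits replace, were all lower in high prolificacy sows, PSMB5 by 0.18, PSMB6 by 0.20 and PSMB7 by 0.14, and none passed, with 0.920 as the smallest adjusted p.

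Of 25 listed regulators of class I transcription and interferon signalling 15 were tested, 9 higher and 6 lower, with a median difference of 0.05 and 0 past the adjusted test. SOCS1, an inhibitor of cytokine signalling, was 4.45 ± 0.70 in high prolificacy sows, against 5.20 ± 0.45 in low prolificacy sows, and differed by -0.75 with an unadjusted limma p of 0.0310 and an adjusted p of 0.839. The transcription factors IRF1, IRF9 and IRF2 differed by 0.26, 0.40 and 0.20. Interferon gamma itself, IFNG, averaged 1.98 in both groups and was not tested.

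Of 13 other class I and class I-like genes 3 were tested, the Fc receptor chain FCGRT with a difference of -0.11, the protein C receptor PROCR with -0.35 and AZGP1 with 0.000975. Of 10 class II genes 7 were tested, 6 higher and 1 lower, with a median of 0.19. Among them the class II chains SLA-DQB1 and SLA-DRB1 differed by 0.25 and 0.21, the invariant chain CD74 by 0.19 and the peptide exchange factor SLA-DMA by -0.14. None of these passed the adjusted limma test. Without high 5, in which both the class II and the SLA-2 levels were high, 4 of the 7 class II genes were higher and 3 lower, with a median of 0.03. That median was 0.34 without high 3, 0.46 without high 2 and high 3, and 0.05 with the actin difference as a covariate, with 6 of 7 genes higher in each of these.

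Of 25 interferon-responsive genes 13 were tested and all 13 were higher in high prolificacy sows, where the share over all tested probe sets was 47.6%. Their median difference was 0.60, and 0 passed the adjusted test. Without high 5 all 13 were still higher and the median was 0.38. Without high 2 and high 3 all 13 were higher with a median of 0.95. With the actin difference as a covariate 12 were higher and 1 lower, with a median of 0.74. OAS1, an antiviral RNA-sensing enzyme, differed by 2.25, the guanylate-binding protein GBP1 by 0.76, IFIT2 by 0.48 and the transcription factor IRF7 by 0.27. Beside those differences, the members TAP1, PSMB8, SLA-2 and SLA-3 differed by 0.04, 0.33, 0.15 and 0.25, and the B2M probe sets by -0.46 to 1.14. The mean level of the 13 tested genes was 7.47, 6.55, 5.18, 5.78, 7.40 and 6.77 in high 1 to 6, with high 1 the highest of all sows. In low prolificacy sows it was 5.08 to 6.87, with low 4 the highest of them. The part of interferon in the class I values was not tested.

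A mean profile of the 8 genes over the 12 sows took the brightest tested probe set of each, centred but not scaled. SLA-8 a, with a within-group SD of 1.19 against 0.25 to 0.36 for the others, weighs most in it. By likeness to this profile, the nearest gene outside the list was LRIG1, a leucine-rich repeat transmembrane protein, at r = 0.955 (rho = 0.951, and r = 0.871 without the 2 farthest sows). It was followed by LOC100519098 at r = 0.865, the proteasome activator subunit PSME2 at 0.809, the nuclear receptor RORA at 0.806, SLA-DQB1 at 0.803 and the ADP-ribosyltransferase family member PARP9 at 0.792. Without the 2 farthest sows the r was 0.286 for PSME2, 0.140 for RORA and 0.463 for SLA-DQB1, so these rested on those sows, and it was 0.758 for PARP9 and 0.685 for LOC100519098. With SLA-2, SLA-3 and B2M b alone as the profile, chosen after seeing the data, the nearest were AAGAB at 0.911, MRAP at 0.888, HSBP1 at 0.881, PABPN1 at 0.879, TRAPPC2L at 0.862 and CYB561 at 0.858. These are the highest of many correlations and are given as descriptions.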

How the data were processed

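Ovary RNA of 12 sows was hybridised to Affymetrix porcine GeneChips, 1 array per sow. The submitters' processing notes name GCOS (scanner software) and GCRMA (background correction, normalization and summary of probes) as the tools the authors used, without versions. The deposited log2 scale was inferred from the values, which span 0.97 to 15.34. GCRMA pulls dim probe sets toward a floor, which compresses their differences. The number of sows limits the precision. The labels name separate animals and give no batch.

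Gene names came from the platform annotation. The names of 62 porcine control probe sets were displaced by 21 places against their values and were moved back for the 3' minus 5' differences. This lowered the mean gap to spike controls of the same name, over 19 pairs, from 5.17 to 0.493.

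Probe sets above 4 in at least 6 sows were compared with limma 3.58.1 (lmFit, eBayes; R 4.3.3) without covariate, with Benjamini-Hochberg adjustment over all 13390. The steps were tested on simulated data. All tests are two-sided. A list uses the brightest probe set of each gene. Array measures used an exact permutation test over all 924 assignments of the sows, and correlations used 100000 permutations. Named are all member probe sets, up to 4 genes of each list by smallest p, except that markers of cell types are given by list, and the 6 nearest genes by profile. IFNG and the dim lymphocyte markers were picked out with their values in view. The members and lists were chosen with earlier results of these data known. RefSeq's Sscrofa11.1 was used only for names and neighbours, and no sequence was used.

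The animal numbers do not pair the sows. The correlation of same-numbered sows' deviations from their group means ran from -0.455 to 0.168. Alternatives were another filter or normalization, the animal number as a block, each sow left out, other moderation, array weights, and actin or albumin as covariate.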

Additional observations from a re-analysis of the deposited data

Results flagged for a closer look

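In groups of 6, a sow was marked as far from its group when its gap to the nearest sow exceeded 0.625 of the group's range (Dixon's 95% critical value). Of 50 groups checked, 8 had such a sow, 5 of them with a value above 4. Chance marks about 1 in 20 groups, and several of these probe sets share a gene or a sow.

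For SLA-8, high 3 was at 4.56 on probe set b, where the next sow of its group was at 7.36, and at 4.99 on probe set a, where the next was at 7.42. For PSMB8, high 5 was at 7.26, and the next high prolificacy sow was at 6.37. For B2M i, low 5 was at 5.18 and the next low prolificacy sow at 4.93. On a probe set annotated to several class I heavy chain genes, which is not a member, low 4 was at 10.05 and the next low prolificacy sow at 4.83.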

How the results depend on the processing

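Over 23 alternatives and the 17 tested members, 0 members passed an adjusted p of 0.05 in any, leave-one-out fits included. Over all tested probe sets the count was 0 in each alternative except that it was 1 without low 1, so the leave-one-out range was 0 to 1. At an unadjusted limma p under 0.05 there was 1 member, and there were 755 of all 13390 tested probe sets. Under alternatives these counts were 6 and 723 without high 2 and high 3, 4 and 899 without high 3, and 4 and 874 with array weights. They were 3 and 2178 with the actin covariate and 2 and 860 with albumin as a covariate. Without high 3 and high 5 they were 2 and 884, a setting chosen after seeing the data. Also chosen after seeing the data were the direction and spread values without single sows. The same holds for the list counts under other settings and the marker and list means over tested genes. With the animal number as a replicate block, 662 probe sets had an unadjusted p under 0.05, against 755 without it, and 0 passed; since the numbers do not pair the sows, nothing is read from this.

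Of 389 member differences recomputed, 350 kept their direction and 39 reversed it, in 13 probe sets. SLA-3, PSMB8, B2M d and B2M f kept theirs in each. With the actin covariate the difference was -0.0041 for SLA-2, -0.12 for B2M b, -0.14 for B2M e, -0.019 for B2M h, 0.15 for B2M c and -0.18 for TAP1. With albumin it was 0.20 for SLA-8 b and 0.24 for SLA-8 a. Without high 3 and high 5 it was -0.10 for SLA-6, -0.027 for SLA-7, 0.37 and 0.39 for the same SLA-8 probe sets and 0.044 for B2M i; without high 2 and high 3 it was 0.40 and 0.37 for SLA-8 and 0.045 for B2M i. For B2M i it was also 0.021 under quantile normalization, 0.016 under median centring and 0.0067 with array weights, which gave 0.13 for B2M g.

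Leaving out 1 sow at a time gave -0.0014 to 0.23 for SLA-6, -0.38 to 0.42 and -0.32 to 0.44 for SLA-8, -0.14 to 0.015 for B2M a, -0.11 to 0.027 for B2M c, -0.16 to 0.077 for B2M g, -0.053 to 0.039 for B2M i and -0.047 to 0.14 for TAP1. Members that kept their direction also moved by over 1.5 times. SLA-2 was 0.034 without high 4 and 0.27 without high 3, B2M e 0.046 and 0.28 without the same sows, and B2M b 0.0069 without high 5 and 0.19 without high 3. SLA-3 was 0.15, SLA-7 0.037 and PSMB8 0.14 without high 5, and SLA-7 0.17 without high 4. B2M d was -0.27 without high 5 and -0.72 without high 4, and B2M h 0.11 without high 4. Within low prolificacy sows r was -0.50 for TAP1 and PSMB8 and -0.65 for TAP1 and RSAD2, opposite to the sign over all sows. The cause of these moves was not tested. Differences among dim probe sets are compressed by the background correction, which limits SLA-7 and the 3 probe sets that were not tested.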
